A study of Mus musculus with 4 samples.

Results

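Neurofilament, microtubule and axon growth genes were followed in the cerebrums of mice that lacked the lysolipid transporter gene Mfsd2a in endothelial cells. The members were 10 named genes, Nefl, Nefm, Nefh, Ina, Map2, Mapt, Tubb3, Stmn2, Dcx and Gap43, out of 18194 genes that the arrays name with a single symbol. Every probe set that carries one of these symbols alone was used, 23 in all, and each gene was represented by its brightest probe set, the one whose log2 signal averaged highest across the 4 arrays. RNA of 4 groups was measured, each as 1 pool of 5 to 6 cerebrums on 1 Affymetrix expression array. 2aECKO mice carried the floxed Mfsd2a allele on both chromosomes with Tie2-cre, which is active in endothelial cells, and were taken at postnatal day 9. Their controls were 2afl/fl mice of postnatal day 9, which carried the same floxed alleles and no cre. 2aiECKO mice carried the floxed alleles with Cdh5ERT2-cre, a cre of endothelial cells that works only after 4-hydroxytamoxifen (4-OHT), and were taken at postnatal day 8. Their controls were 2afl/fl mice of postnatal day 8 that had received 4-OHT and carried no cre. By the study's methods the pups of that pair were injected with 4-OHT from birth, and mice of both sexes were used.

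Neurofilaments are the intermediate filaments of axons. They are assembled from a light, a medium and a heavy chain, encoded by Nefl, Nefm and Nefh, together with alpha-internexin, encoded by Ina, and in rodents the heavy chain appears last as axons mature and widen. Microtubules run along axons and dendrites, and their tubulin is bound and stabilised by proteins such as those of Map2, Mapt and Dcx. Stmn2 and Gap43 belong to the growth cone, the moving tip of an extending axon, and are high in neurons that are still growing.

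The deposited values are linear intensities that the authors made with RMA, which adjusts for background and quantile-normalises the arrays, and each fold is given as log2 of knockout over its own control. The median signal over all probe sets was 75.5 in 2aECKO and 74.1 in 2afl/fl, against 49.2 in 2aiECKO and 48.7 in 2afl/fl 4-OHT. The scales of the pairs thus differed, so that a fold was formed only inside its pair. Each group has 1 array, so no difference could be checked in a replicate, no p-value was computed, and precision is limited by how few arrays there are. Mfsd2a itself had a signal of 410 in 2aECKO and 423 in 2afl/fl, and of 299 in 2aiECKO and 369 in 2afl/fl 4-OHT. Where its probe set lies relative to the deleted part was not known here, so these values do not check the labels. For the 2aiECKO sample the title and genotype were followed, although its source label says 2aECKO. In these bulk samples, fewer cells of a type and less RNA per cell cannot be told apart.

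Of the 10 genes, the neurofilament heavy chain gene stood lowest in 2aECKO, and the light and medium chain genes lay on the same side. Nefh had a signal of 455 in 2aECKO and 636 in 2afl/fl, a log2 fold of -0.48. In the induced model its signal was 287 in 2aiECKO and 327 in 2afl/fl 4-OHT, a log2 fold of -0.19. The difference between those log2 folds, 2aECKO minus 2aiECKO, was -0.29, and it was not tested. Nefh was below its control in both knockout pools, and by more in 2aECKO. Nefm, the medium chain gene, had a signal of 1754 in 2aECKO and 2178 in 2afl/fl, a log2 fold of -0.31. It had 1677 in 2aiECKO and 1804 in 2afl/fl 4-OHT, a log2 fold of -0.10. Nefl, the light chain gene and by RefSeq's annotation of GRCm38.p6 the next protein-coding gene to Nefm, had 5207 in 2aECKO and 5764 in 2afl/fl, a log2 fold of -0.15. In the induced pair Nefl had 4054 in 2aiECKO and 4195 in 2afl/fl 4-OHT, a log2 fold of -0.05. The 3 chain genes thus had the order Nefh, Nefm, Nefl, from most to least below control, in both models. In 2aiECKO the steps between them were small, and 32 percent of all genes had a lower log2 fold than Nefl. Ina, the alpha-internexin gene, had 2385 in 2aECKO and 2535 in 2afl/fl, and 1637 in 2aiECKO and 1747 in 2afl/fl 4-OHT. Its log2 folds were -0.09 and -0.09, so it differed little between the models. The mean for Nefl, Nefm, Nefh and Ina was -0.26 in 2aECKO and -0.11 in 2aiECKO.

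Among the microtubule genes, those of class III beta-tubulin and tau were lower in 2aiECKO by a little, and none was past 0.32 in size on the log2 scale in either model. Tubb3, which encodes the beta-tubulin typical of neurons, had a signal of 4712 in 2aECKO and 5099 in 2afl/fl, a log2 fold of -0.11. It had 4467 in 2aiECKO and 5123 in 2afl/fl 4-OHT, a log2 fold of -0.20, the lowest of the 10 genes in that model. Mapt, which encodes tau, the microtubule-binding protein of axons, had 5074 in 2aECKO and 4956 in 2afl/fl, a log2 fold of 0.03. In the induced pair Mapt had 3881 in 2aiECKO and 4402 in 2afl/fl 4-OHT, a log2 fold of -0.18. Mapt thus stood near its control in 2aECKO and below it in 2aiECKO. Map2, which encodes a microtubule-associated protein mostly of dendrites, had 6724 in 2aECKO and 6628 in 2afl/fl, and 5151 in 2aiECKO and 5239 in 2afl/fl 4-OHT. Its log2 folds at this probe set were 0.02 and -0.02. The mean log2 fold of Map2, Mapt and Tubb3 was -0.02 in 2aECKO and -0.13 in 2aiECKO.

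The genes of growing and migrating neurons stayed close to their controls. Stmn2, whose protein destabilises microtubules in growth cones, had a signal of 12121 in 2aECKO and 12465 in 2afl/fl, and 11297 in 2aiECKO and 11443 in 2afl/fl 4-OHT. Its log2 folds were -0.04 and -0.02. Gap43, a membrane-bound growth cone protein gene, had 7314 in 2aECKO and 7563 in 2afl/fl, and 6699 in 2aiECKO and 7155 in 2afl/fl 4-OHT. Its log2 folds were -0.05 and -0.10. Dcx, the doublecortin gene of migrating young neurons, had 2419 in 2aECKO and 2244 in 2afl/fl, a log2 fold of 0.11 and the highest of the 10 genes there. In the induced pair Dcx had 2269 in 2aiECKO and 2433 in 2afl/fl 4-OHT, a log2 fold of -0.10. Dcx was thus above its control in 2aECKO and below it in 2aiECKO.

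**Figure D1:**
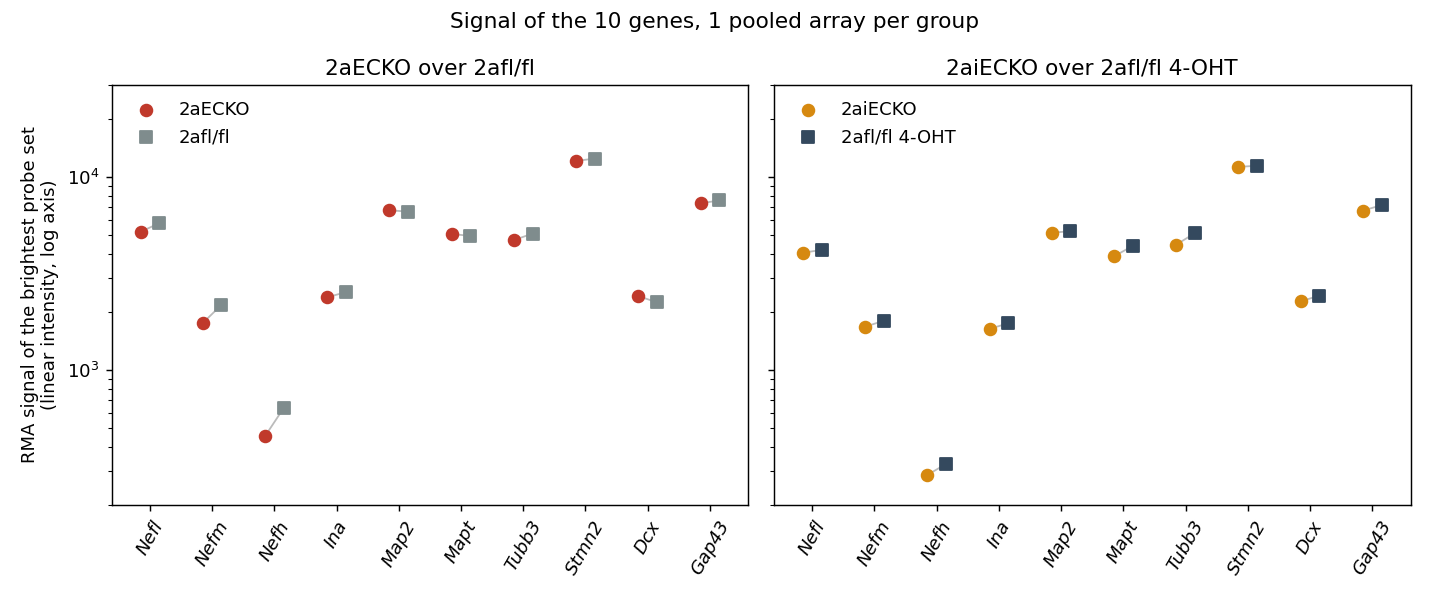
Signal of the brightest probe set of each of the 10 genes (vertical axis, linear intensity on a log axis), with 2aECKO left of 2afl/fl in the left panel and 2aiECKO left of 2afl/fl 4-OHT in the right panel; each point is 1 pooled array, and signals of different genes are not compared. The widest gap within a pair is that of Nefh, with 455 in 2aECKO and 636 in 2afl/fl.

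A gene was counted as lower where its fold was 0.8 or less and its control signal reached 50, and as higher where its fold was at least the inverse of 0.8 and its knockout signal reached 50, which is 0.32 in size on the log2 scale. This size is called the fold limit from here on. All 10 genes had a mean signal above 50 over the 4 arrays and were counted. In 2aECKO 1 of the 10, Nefh, was lower, against 1.44 percent of 12426 genes, and 0 were higher, against 2.04 percent. Nefh, with a fold of 0.715, was the only member inside the limit, and Nefm, with a fold of 0.805, lay just outside it. Among the 12426 genes, 0.241 percent had a lower log2 fold than Nefh in 2aECKO and 1.66 percent had a lower one than Nefm. In 2aiECKO 0 of the 10 were lower, against 0.523 percent of all genes, and 0 were higher, against 1.77 percent. There 3.61 percent of genes had a lower log2 fold than Tubb3, 4.23 percent than Nefh and 4.66 percent than Mapt.

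At their brightest probe sets the 10 genes lay on the same side in the induced pair. In 2aiECKO 10 of the 10 genes had a log2 fold below 0, against 50.9 percent of all genes, with values from -0.20 for Tubb3 to -0.02 for Stmn2. In 2aECKO 7 of the 10 did, against 51.5 percent of all genes, with values from -0.48 for Nefh to 0.11 for Dcx. The median log2 fold of the 10 genes was -0.07 in 2aECKO, where that over all genes was -0.01, and -0.10 in 2aiECKO, where that over all genes was 0.00. With each gene's probe sets averaged, 9 of the 10 were below 0 in 2aECKO and 9 in 2aiECKO, so the count did not differ between the models there. All 10 values of a model come from the same pair of arrays and are not independent of each other.

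Markers of neurons and of other cells differed in the same pools. For comparison, 51.5 percent of all genes were below 0 in 2aECKO and 50.9 percent in 2aiECKO. By the fold limit 2.04 percent of all genes were higher and 1.44 percent lower in 2aECKO. The same shares in 2aiECKO were 1.77 and 0.523 percent. Of 6 neuron markers, 5 of which also stand in the list of mature neuron genes, 6 were below 0 in both models, with a median of -0.09 in 2aECKO and of -0.06 in 2aiECKO (log2 folds). Their summed signal was 26495 in 2aECKO and 27997 in 2afl/fl, and 19103 in 2aiECKO and 19883 in 2afl/fl 4-OHT. Of 9 astrocyte markers, 8 were above 0 in 2aECKO and 9 in 2aiECKO, with median log2 folds of 0.25 and 0.27, and 1 and 3 were higher by the fold limit. The summed astrocyte signal was 24454 in 2aECKO and 21411 in 2afl/fl, and 18149 in 2aiECKO and 15025 in 2afl/fl 4-OHT. Of 10 microglia markers, 7 were above 0 in 2aECKO and 9 in 2aiECKO, with median log2 folds of 0.10 and 0.50; P2ry12 and Tmem119 were lower by the fold limit in 2aECKO, and 8 of the 10 were higher in 2aiECKO. Their summed signal was 4848 in 2aECKO and 4581 in 2afl/fl, and 5991 in 2aiECKO and 4137 in 2afl/fl 4-OHT. Of 6 nuclear-retained RNAs, 5 were higher by the fold limit in 2aECKO, with a median log2 fold of 0.51, and 0 were in 2aiECKO, with a median of 0.21. Their summed signal was 18499 in 2aECKO and 13092 in 2afl/fl, and 7310 in 2aiECKO and 6334 in 2afl/fl 4-OHT. Medians of the other marker lists were -0.17 in 2aECKO and -0.08 in 2aiECKO for 4 excitatory neuron markers, -0.03 and -0.07 for 5 inhibitory neuron markers, 0.00 and 0.08 for 8 oligodendrocyte markers and 0.03 and -0.13 for 8 endothelial markers. Of these, 2 excitatory markers and 1 oligodendrocyte marker were lower by the fold limit in 2aECKO. In 2aiECKO 1 oligodendrocyte marker was higher and 1 endothelial marker was lower. Alas2, the only red cell marker with a mean signal above 50, had 1.05 in 2aECKO and -0.51 in 2aiECKO, the second at signals of 25.8 in 2aiECKO and 36.8 in 2afl/fl 4-OHT, under the minimum of 50. None of the matched markers was listed at 0. The part of these markers in the values of the 10 genes was not tested.

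Genes of immature neurons were set against a gene of mature neurons, because growth cone and migration genes mark young neurons while the heavy neurofilament chain marks mature axons. The mean log2 fold of Dcx, Stmn2 and Gap43 was 0.01 in 2aECKO and -0.07 in 2aiECKO. Subtracting the log2 fold of Nefh gave a difference of 0.49 in 2aECKO and 0.12 in 2aiECKO. In 2aECKO each of the 3 genes lay well above Nefh, by 0.59 for Dcx, 0.44 for Stmn2 and 0.44 for Gap43. In 2aiECKO the same differences were 0.09, 0.17 and 0.09, which is smaller for each gene. The other members also lay above Nefh in 2aECKO, by 0.52 for Mapt, 0.50 for Map2 and 0.40 for Ina. For Tubb3, Nefl and Nefm it was 0.37, 0.34 and 0.17. A gap to Nefh in 2aECKO was thus not particular to the immature genes. In 2aiECKO the other members ran from -0.01 for Tubb3 to 0.17 for Map2. In 2aECKO the difference between the immature genes and Nefh lay on the side of Nefh, with the immature genes near their control level. It rests on 1 probe set of 1 gene on the mature side, and it was 0.075 in 2aECKO when the control was the mean of both control pools after quantile normalisation over the 4 arrays. With the 4-OHT control of day 8 in place of 2afl/fl it turned to -0.37. In 2aiECKO it was 0.55 with the mean of both controls and 0.99 with the 2afl/fl control of day 9, so with either choice 2aiECKO had the larger difference.

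Longer lists gave the same order with smaller values. They were read from the same arrays and chosen with earlier results of these data known, so they are no independent check. Of 20 other immature neuron genes, 17 had a log2 fold above 0 in 2aECKO and 9 in 2aiECKO, with medians of 0.07 and -0.01. Below 0 were 3 and 11 of them, against 51.5 and 50.9 percent of all genes. By the sum of both log2 folds those furthest up were Nhlh2, a transcription factor gene of young neurons, with 0.55 in 2aECKO and 0.12 in 2aiECKO, and Sox4, another such factor gene, with 0.26 and 0.09. The lowest were Elavl4, with -0.11 and -0.08, and Elavl2, with -0.06 and -0.08, which encode neuronal RNA-binding proteins. Of 18 other mature neuron genes, 16 were below 0 in 2aECKO and 15 in 2aiECKO, against the same shares of all genes. The medians of this list were -0.13 and -0.06. Slc17a7, the vesicular glutamate transporter gene, had a signal of 248 in 2aECKO and 324 in 2afl/fl, a log2 fold of -0.39, and 113 in 2aiECKO and 131 in 2afl/fl 4-OHT, a log2 fold of -0.21. Nrgn, the neurogranin gene of dendritic spines, had log2 folds of -0.29 and -0.24. At the other end were Gria2, an AMPA receptor subunit gene, with 0.08 and -0.01, and Vamp1, a synaptic vesicle gene, with 0.03 and 0.09. The median of the immature list minus that of the mature list was 0.19 in 2aECKO and 0.05 in 2aiECKO. Between the control pools, 2afl/fl 4-OHT minus 2afl/fl after quantile normalisation over the 4 arrays, the list medians were further apart, at -0.03 and -0.36. By the fold limit 1 immature gene, Nhlh2, was higher in 2aECKO and 0 were lower, while 2 mature genes, Slc17a7 and Camk2a, were lower and 0 were higher. Over all genes 2.04 percent were higher and 1.44 percent lower in 2aECKO. In 2aiECKO 0 of either list passed the limit, against 1.77 percent of all genes higher and 0.523 percent lower. Camk2a, a kinase gene of excitatory synapses, was named after its value was seen and had log2 folds of -0.36 and -0.17.

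**Figure D2:**
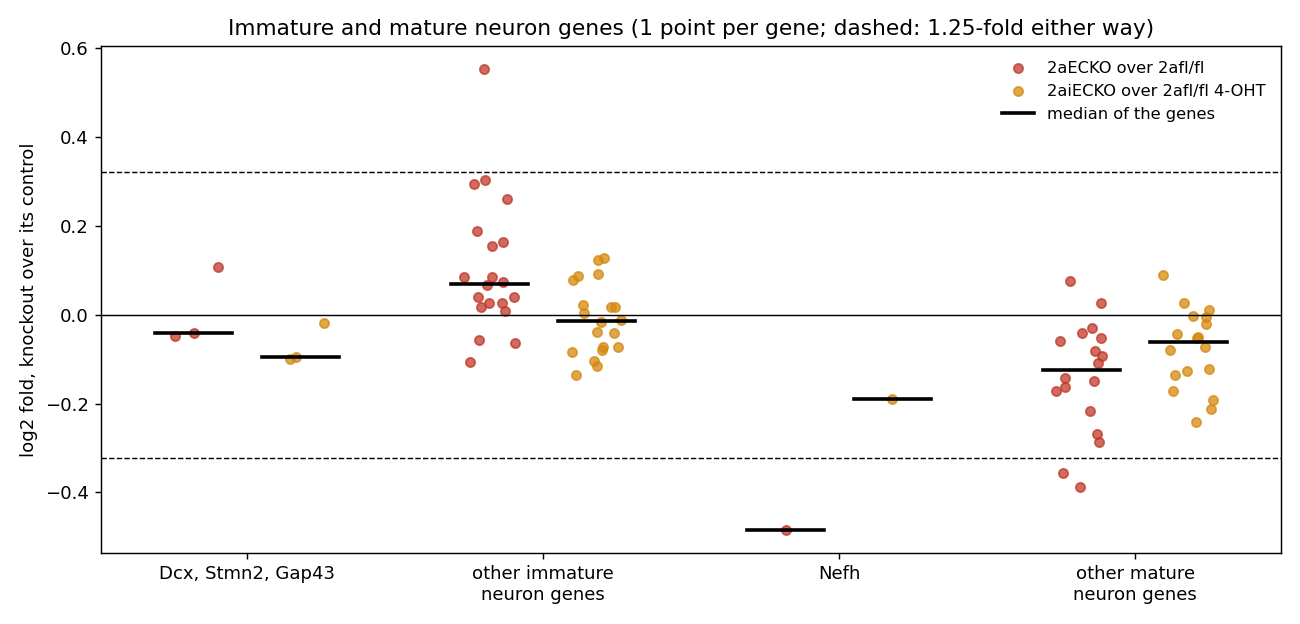
Log2 fold of knockout over its control (vertical axis) for Dcx, Stmn2 and Gap43, 20 other immature neuron genes, Nefh and 18 other mature neuron genes; points are single genes, 1 pooled array per group, in 2aECKO (red) and 2aiECKO (orange), black lines are medians and dashed lines mark the fold limit, a log2 fold of 0.32 in size. Nefh lies at -0.48 in 2aECKO, and the median lines of the longer lists lie at 0.07 and -0.13 in that model.

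How far a fold depends on the probe set could be read from the 6 genes with several. For 5611 genes with at least 2 probe sets of sufficient signal, the log2 folds of the 2 brightest differed by a median of 0.07 in 2aECKO and 0.07 in 2aiECKO, and by up to 0.21 at the 90th percentile in each. The dimmer probe set of Nefl was close to the brighter one, at -0.14 in 2aECKO and -0.05 in 2aiECKO. That of Stmn2 had -0.05 in 2aECKO, close to the brighter one, and -0.09 in 2aiECKO, which differed by 0.07. The other probe sets of Ina had 0.03 and -0.04 in 2aECKO, and in 2aiECKO they had -0.05 and -0.08, so in 2aECKO the gene had no settled side. Those of Mapt ranged from -0.15 to -0.02 in 2aECKO and from -0.16 to -0.09 in 2aiECKO, which places all 4 tau probe sets below control in 2aiECKO. Those of Dcx gave 0.07, 0.19 and -0.20 in 2aECKO, the last at signals of 120 in 2aECKO and 137 in 2afl/fl, and -0.17, -0.10 and -0.06 in 2aiECKO. All 4 Dcx probe sets were thus below control in 2aiECKO, but the last had signals of 38.5 in 2aiECKO and 40.3 in 2afl/fl 4-OHT, under the minimum of 50.

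Map2 was the gene whose probe sets disagreed most. Its brightest probe set had a log2 fold of 0.02 in 2aECKO, while the next had a signal of 856 in 2aECKO and 1028 in 2afl/fl, a log2 fold of -0.26. Another had 257 in 2aECKO and 328 in 2afl/fl, a log2 fold of -0.35, and the dimmest had 255 in 2aECKO and 178 in 2afl/fl, a log2 fold of 0.52. Within 1 gene, then, 1 probe set was lower and another higher by the fold limit. In 2aiECKO the corresponding log2 folds were -0.02, 0.17, 0.00 and 0.00. The last pair of values came from probe sets listed with the same signal on both arrays, 100.3 for one and 49.5 for the other, which is under the minimum of 50. Such ties occurred at 2368 probe sets of the 2aECKO pair and 2850 of the 2aiECKO pair, and at 0 between the controls. Of the 23 probe sets of the 10 genes, 16 were below 0 in 2aECKO and 20 in 2aiECKO. The share below 0 was not computed over all probe sets, and over all genes it was 51.5 and 50.9 percent. In 2aECKO 2 were lower by the fold limit, against 1.63 percent of 21585 probe sets, and 1 was higher, against 2.62 percent. In 2aiECKO 0 were lower, against 0.607 percent, and 0 were higher, against 1.73 percent. Nefh, Nefm, Tubb3 and Gap43 have 1 probe set each, so their folds could not be compared in this way.

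**Figure D3:**
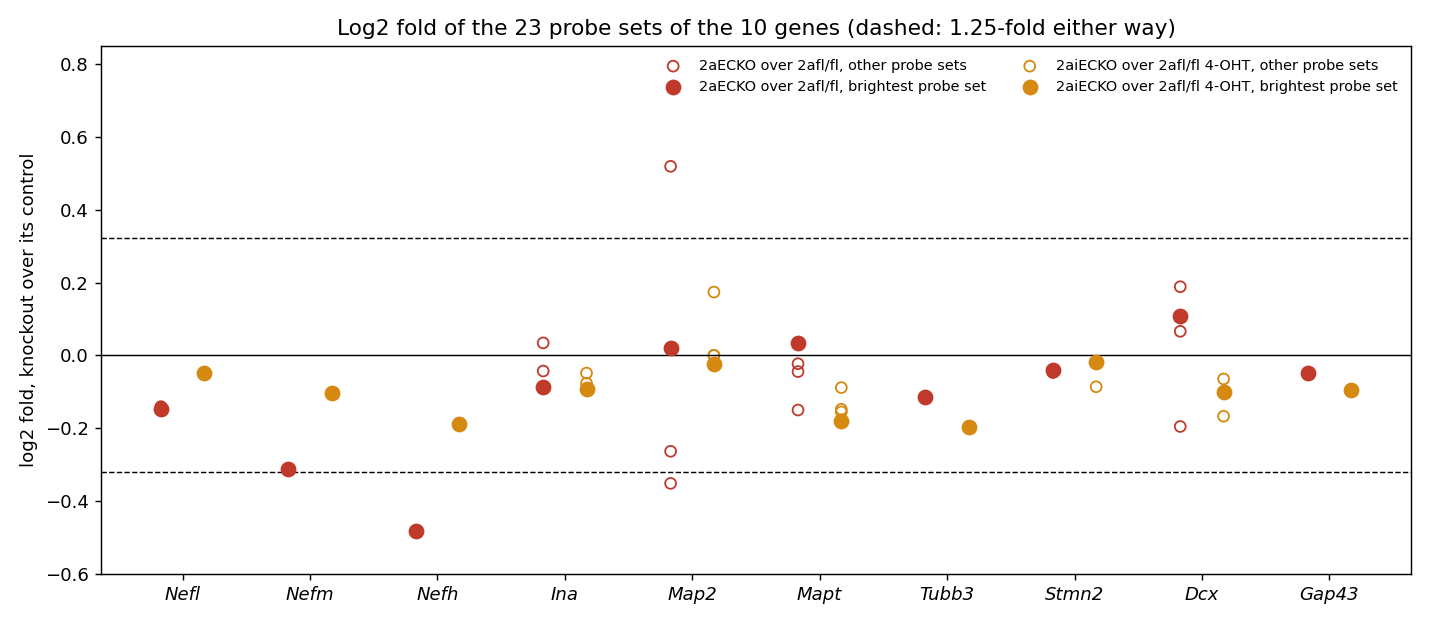
Log2 fold of knockout over its control (vertical axis) for every probe set of the 10 genes (horizontal axis), in 2aECKO (red, left of each gene) and 2aiECKO (orange, right), 1 pooled array per group; filled points are the brightest probe set, open points the others, and dashed lines mark the fold limit, a log2 fold of 0.32 in size. Nefh lies at -0.48 in 2aECKO, and the Map2 probe sets spread between -0.35 and 0.52.

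The control pools show how much these genes differed between pools without cre. They differ in age, day 8 against day 9, in 4-OHT and in the scale of their arrays, and the share of each sex in a pool was not known here, so these cannot be told apart. All 4 arrays were quantile-normalised together for this comparison, which uses the 2afl/fl array that also serves the 2aECKO comparison. Nefh then had a signal of 366 in 2afl/fl 4-OHT and 569 in 2afl/fl, a log2 difference of -0.64. That is larger in size than its log2 fold of -0.49 in 2aECKO on the same scale. Dcx had 2681 in 2afl/fl 4-OHT and 2015 in 2afl/fl, a log2 difference of 0.41, and Tubb3 had 5567 in 2afl/fl 4-OHT and 4689 in 2afl/fl, a log2 difference of 0.25. Gap43 and Stmn2 differed by 0.19 and 0.15, Mapt by 0.09 and Nefm by 0.03, while Map2, Nefl and Ina differed by -0.08, -0.21 and -0.24. Stmn2 and Gap43 thus stood higher, and Nefh lower, in the 4-OHT control of day 8. The mean of Dcx, Stmn2 and Gap43 minus Nefh was 0.88 between the controls at the brightest probe sets, and the side of Dcx in it was not settled. The longer lists had medians of -0.03 for immature and -0.36 for mature neuron genes there. By the fold limit 1 of the 10 genes was lower, against 7.98 percent of 12415 genes, and 1 was higher, against 14.5 percent.

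The side of Dcx between the controls depended on the probe set. Its brightest gave 0.41, while the other 3 gave -0.53, -0.45 and -1.20. Map2 was below 0 at each probe set but differed in size: its brightest gave -0.08 and the others gave -1.37, -1.28 and -1.31. Over all 23 probe sets 7 were lower and 2 higher by the fold limit. Between the controls the shares over all probe sets were not computed, so these counts are not read further. Over all genes 7.98 percent were lower and 14.5 percent higher. Mapt had 0.42 at its next probe set, and 2 of the 3 Ina probe sets were above 0, at 0.21 and 0.06.

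**Figure D4:**
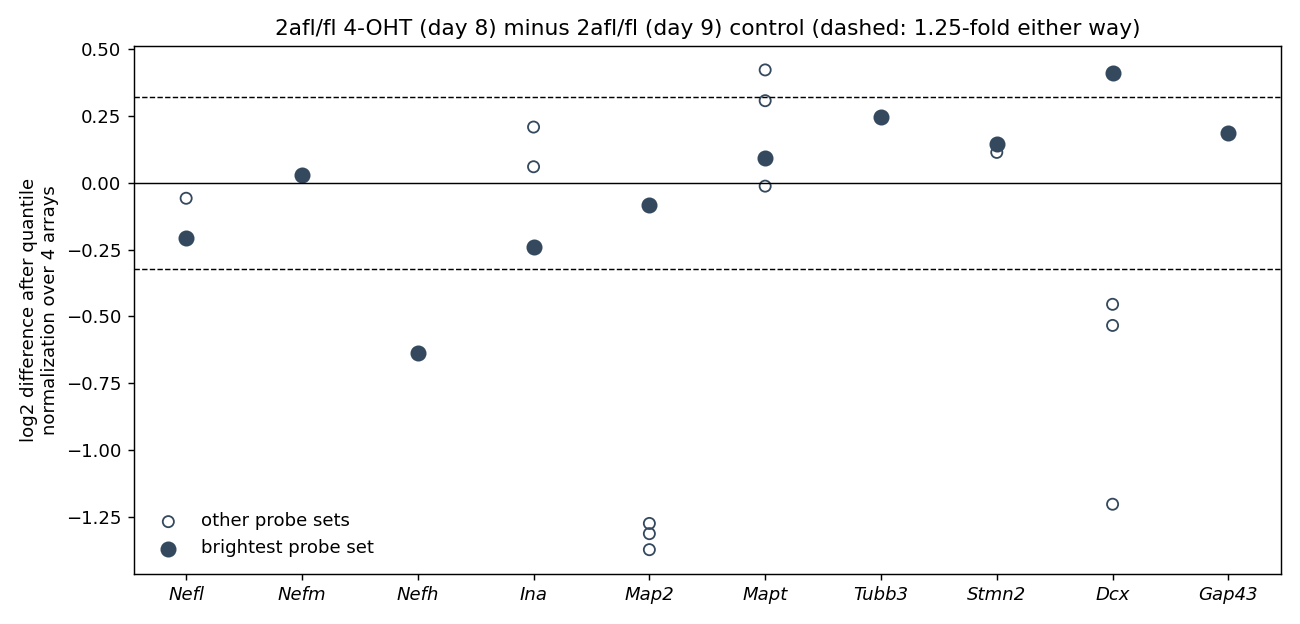
Log2 difference of the 2afl/fl 4-OHT control of day 8 minus the 2afl/fl control of day 9 (vertical axis), after quantile normalisation over 4 arrays, for every probe set of the 10 genes (horizontal axis); filled points are the brightest probe set, open points the others, and dashed lines mark the fold limit, a log2 fold of 0.32 in size. Nefh lies at -0.64, and the dimmer probe sets of Map2 and Dcx reach -1.37 and -1.20.

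Other lists of cytoskeleton and axon genes had median log2 folds between -0.09 and 0.02, while single genes in them moved further. The 5 other intermediate filament genes were mixed, with medians of 0.00 (2aECKO) and -0.01 (2aiECKO). Gfap, the astrocyte filament gene, was higher by the fold limit in both, with 604 in 2aECKO and 326 in 2afl/fl, a log2 fold of 0.89, and 493 in 2aiECKO and 264 in 2afl/fl 4-OHT, a log2 fold of 0.90. Vim, the vimentin gene of glia and precursor cells, was higher by the fold limit in 2aECKO, at 0.39, and had 0.19 in 2aiECKO. Synm, which encodes synemin, had -0.18 and was lower by the fold limit in 2aiECKO, at -0.34, and Prph, the peripherin gene of peripheral and some central neurons, had -0.17 and -0.03. Nefl, Nefm and Nefh were thus below control and Gfap and Vim above it in both models.

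Of 11 other tubulin genes, 8 were below 0 in 2aECKO and 8 in 2aiECKO, against 51.5 and 50.9 percent of all genes. The tubulin medians were -0.06 and -0.05. By the fold limit 1 tubulin gene was lower in 2aECKO, against 1.44 percent of all genes. That was Tuba4a, an alpha-tubulin gene, with a signal of 4573 in 2aECKO and 5737 in 2afl/fl, a log2 fold of -0.33, and a log2 fold of -0.16 in 2aiECKO. Tubb4a had -0.22 and -0.05, while Tubb2b, a beta-tubulin gene of young neurons, had 0.04 and 0.02 and Tubg2, a gamma-tubulin gene, had -0.06 and 0.10. For 22 other genes of microtubule-associated proteins and stathmins the medians were -0.02 and -0.02. Map6, which encodes a microtubule-stabilising protein, was lower by the fold limit in 2aiECKO, with 442 in 2aiECKO and 558 in 2afl/fl 4-OHT, a log2 fold of -0.34, but had -0.04 in 2aECKO. Tppp, a microtubule-bundling protein gene of oligodendrocytes, had -0.25 and -0.13, Clasp1 had 0.12 and 0.00 and Camsap3 had 0.09 and 0.02.

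For 24 other genes of axon growth and growth cones the medians were 0.02 in 2aECKO and -0.04 in 2aiECKO. Of these 24 genes, 0 were past the fold limit in either model. Among all genes 2.04 percent were higher and 1.44 percent lower in 2aECKO, and 1.77 and 0.523 percent in 2aiECKO. Robo2, also on this list, was not counted because its mean signal was under the minimum. It had 57.0 in 2aECKO and 37.4 in 2afl/fl, a log2 fold of 0.61, higher by the fold limit. In 2aiECKO its log2 fold was 0.17. Nrp1, the neuropilin receptor gene, had log2 folds of 0.17 and 0.16, and Marcks had 0.15 and 0.03. Sema3a, whose product repels axons, had -0.22 and -0.12, and the ephrin receptor gene Epha4 had -0.18 and -0.12. Of 14 genes of axonal transport motors, 9 were below 0 in 2aECKO and 13 in 2aiECKO, against 51.5 and 50.9 percent of all genes. The medians of these motor genes were -0.03 and -0.07. Among them Kif21b had -0.22 and -0.16 and Kif5a, a kinesin gene of axonal transport, had -0.15 and -0.14, while the dynein genes Dync1i2 and Dync1h1 had 0.08 and 0.04, and 0.09 and -0.07. For 7 spectrin and ankyrin genes the medians were 0.02 and -0.04, with Nfasc at 0.10 and 0.08, Sptbn4 at 0.08 and -0.07, Sptan1 at 0.02 and -0.09 and Epb41l3 at -0.12 and -0.03. For 12 genes of kinases and phosphatases that act on tau and neurofilaments the medians were -0.05 and -0.09. Cdk5r2, which encodes an activator of the kinase Cdk5, had -0.25 and -0.17, Mapk8 had -0.15 and -0.16, and Mark1 and Mark3, genes of kinases that phosphorylate tau, had 0.03 each in 2aECKO and 0.02 and 0.01 in 2aiECKO. The immature neuron list shares 6 genes and the mature neuron list 10 genes with other lists, Tubb2b, Tubb4a and Kif5a among those named.

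**Figure D5:**
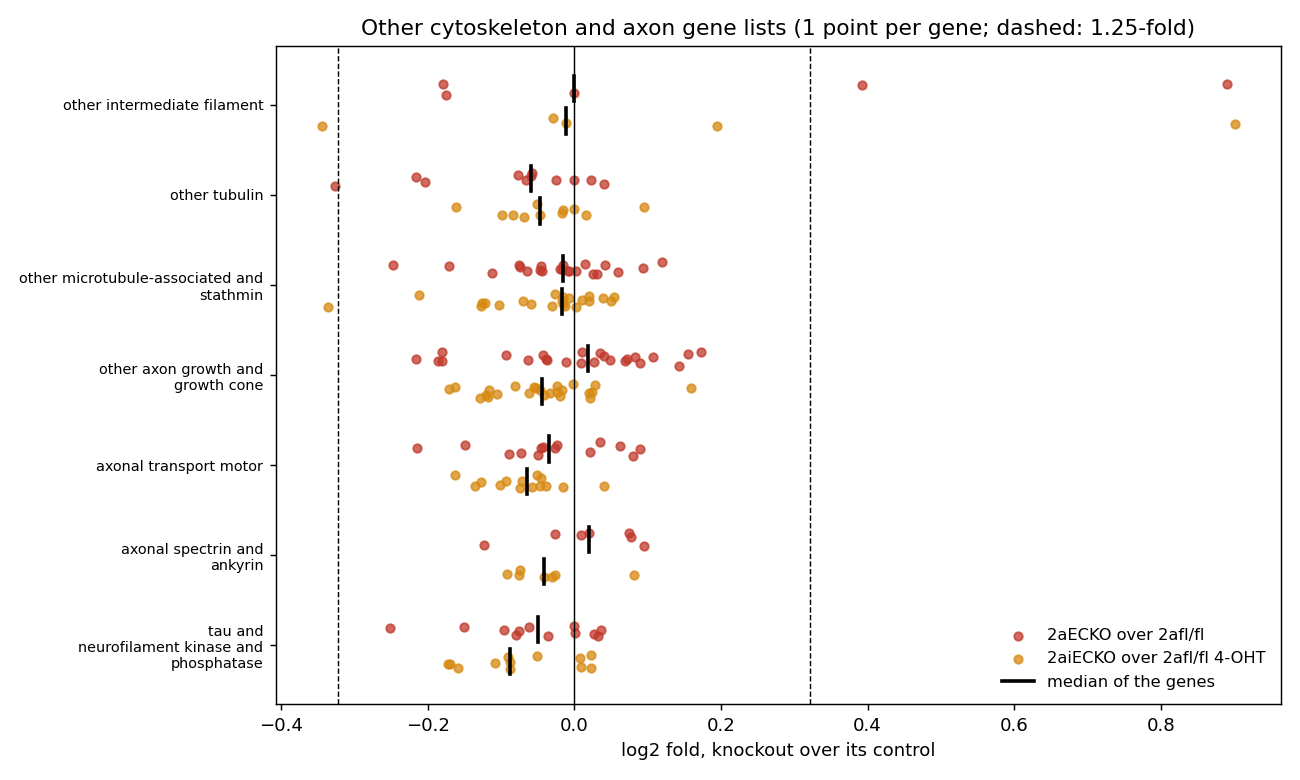
Log2 fold of knockout over its control (horizontal axis) for 7 lists of other cytoskeleton and axon genes (rows), in 2aECKO (red, upper of each row) and 2aiECKO (orange, lower); points are single genes, 1 pooled array per group, black lines are medians and dashed lines mark the fold limit, a log2 fold of 0.32 in size. All medians lie between -0.09 and 0.02, and Gfap is the gene at 0.89 and 0.90.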

How the data were processed

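Cerebrum RNA of 4 groups was measured on 1 Affymetrix array each. The authors deposited linear intensity values from RMA, which adjusts background and quantile-normalizes. The methods name the affy package in R, and the submitters' processing notes name Partek 6.6. Log2 was taken here. Of 45101 probe sets, 34958 carry 1 symbol in the platform annotation, 932 carry several and 9211 are unnamed here, which gave 18194 genes; 12426 had a mean signal of at least 50. Sorted log2 values differed by at most 0.07 within a pair and by up to 0.79 between the controls. The members and gene lists were chosen with earlier results of these data known. Named genes were the 10 members and, of each other list, those with the 2 largest and 2 smallest sums of both log2 folds, plus any past the fold limit in both. With 1 array per group, description replaced testing. Alternatives were other probe set choices, centring, loess (fraction 0.3), quantile normalization over 4 arrays, other folds and signal minimums, and other controls. Listed genes that were not matched to a probe set are not analysed here. The calculations, tested on simulated data, used pandas 2.3.3, numpy 2.4.6, statsmodels 0.14.6 and matplotlib 3.10.9 under Python 3.11.15.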

Additional observations from a re-analysis of the deposited data

Results flagged for a closer look

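Results on opposite sides of 0 in the 2 models are given here as the log2 fold in 2aECKO, that in 2aiECKO and their difference, 2aECKO minus 2aiECKO; each model has 1 array per group, so the difference was not tested. Mapt, the tau gene, had 0.03, -0.18 and 0.22, Dcx had 0.11, -0.10 and 0.21, and Map2 had 0.02, -0.02 and 0.045. These are values of the brightest probe set. With the mean of all probe sets Mapt had -0.05 in 2aECKO and -0.14 in 2aiECKO, on the same side, and Map2 changed sides in both models, with -0.02 in 2aECKO and 0.04 in 2aiECKO. Without the less specific probe sets Mapt had -0.02 in 2aECKO and -0.15 in 2aiECKO. Of the genes named from the other lists, Dync1h1 had 0.09, -0.07 and 0.16, Sptbn4 had 0.08, -0.07 and 0.15, Tubg2 had -0.06, 0.10 and -0.15, Sptan1 had 0.02, -0.09 and 0.11, and Gria2 had 0.08, -0.01 and 0.083. The medians of 3 lists did the same: 0.07, -0.01 and 0.083 for the other immature neuron genes, 0.02, -0.04 and 0.063 for axon growth and growth cone genes, and 0.02, -0.04 and 0.061 for spectrin and ankyrin genes.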

How the results depend on the processing

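A value was taken as moved when it changed by at least the robust SD of single-gene log2 folds, 0.12 in 2aECKO and 0.10 in 2aiECKO. The medians of the 10 genes stayed within that size under each alternative run, from -0.09 to -0.04 in 2aECKO and from -0.10 to -0.08 in 2aiECKO. At a fold of 1.5 the number of the 10 genes that were lower in 2aECKO was 0. The immature minus mature difference of 0.49 in 2aECKO was 0.19 between the medians of the longer lists. With control pools exchanged, after quantile normalization over 4 arrays, it reversed to -0.37 in 2aECKO and was 0.99 in 2aiECKO, and with the mean of both controls it was 0.075 in 2aECKO and 0.55 in 2aiECKO. By construction the difference between the control pools enters these values. Without the less specific probe sets, the log2 fold of Ina in 2aECKO reversed to 0.034, since another probe set then stands for the gene. The other 119 of 120 single-gene values kept their side or moved by less than the size above, but none of the 120 used another control. With all 4 arrays normalized together, Nefh had 405 in 2aECKO, below 569 in 2afl/fl but above 366 in 2afl/fl 4-OHT. Dcx had 2197 in 2aECKO, above 2015 in 2afl/fl but below 2681 in 2afl/fl 4-OHT. The side of both genes in 2aECKO thus depended on the control. No paired analysis was possible because each group has 1 array and the labels give no replicate numbers. Depth is not a quantity of arrays; Nefh was measured well above a signal of 50 on each array.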
